A study of Homo sapiens with 4 samples.

Results

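The gene expression of cells that received a miR-151a-5p mimic was set directly against that of cells that received a miR-27b-3p mimic. The members of this comparison are the probe sets that name 1 gene, 17709 of the 21448 on the array, and they name 17687 genes. For each gene the log2 signal on the miR-27b-3p array was subtracted from that on the miR-151a-5p array, so a difference of 1 is 2-fold and a positive value means higher with miR-151a-5p. Each mimic was measured on 1 array, so every difference lies between 2 arrays, has no replicate check and carries no p-value. Sizes and counts are given instead, and the number of arrays limits their precision.

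The study asked what microRNAs found in the plasma of patients with atopic disease do to a myeloid cell. Both arrays held RNA from THP-1, an established line of human monocytic leukaemia cells, and the groups differed only in the mimic. The miR-151a-5p cells and the miR-27b-3p cells had alike been cultured for 2 days with 100 ng/ml of PMA, a phorbol ester that drives THP-1 cells toward a macrophage-like state. They were then exposed for 24 h to the mimic in complex with a cationic lipid. The series holds 4 arrays. A further mimic array, titled let-7d-5p but described in the design text as let-7a-5p, is used below for its levels only, and the negative control array was not used. Because the cells are 1 line, the arrays report on that line and on 1 time after transfection.

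A microRNA mimic is a synthetic duplex whose guide strand enters an Argonaute protein and pairs through its seed, bases 2 to 8, with messenger RNAs that are then silenced. miR-27b-3p is known for targets in lipid metabolism and in the cell cycle, and reported targets of miR-151a-5p include ARHGDIA. The genes that separated the 2 arrays most belong to the division cycle. In that programme cyclin-dependent kinases inactivate the RB family, E2F factors then switch on genes of DNA synthesis, and the MuvB complex, with MYBL2 and FOXM1, later switches on genes of mitosis. THP-1 cells treated with PMA are known to leave this cycle to a large extent.

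The mature sequence of miR-27b-3p, shown because genes reported as its targets are examined below, was taken from RefSeq on GRCh38.p14, where it lies on chromosome 9 at chr9:95085505-95085525 on the plus strand. Capitals mark the seed.
hsa-miR-27b-3p: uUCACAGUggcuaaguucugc

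The 2 arrays were alike over most genes and differed in a restricted set. The median log2 signal was 7.25 on the miR-151a-5p array and 7.24 on the miR-27b-3p array, Pearson's r across genes was 0.993, and the median difference was -0.02 with a standard deviation of 0.39 across genes. Genes are not independent replicates, and this spread describes genes rather than cultures. At least 2-fold higher with miR-151a-5p were 287 genes, 1.62% of all genes, and 115 genes, 0.65%, were at least 2-fold lower. By any amount, 8235 genes (46.6%) were higher and 9222 (52.1%) were lower. A signal floor of 5.34 was taken from 349 genes of olfactory receptors, which have no known part in myeloid cells, as the 95th percentile of their values, and a gene counts as above it where the mean of the 2 arrays was at or over 5.34. Above the floor lay 11649 genes, of which 230 were 2-fold higher and 59 were 2-fold lower. Among the olfactory receptor genes themselves 5 (1.43%) were 2-fold higher and 2 (0.573%) were 2-fold lower, which is close to the shares over all genes.

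The higher and the lower genes differed in level. The higher genes had a median mean signal of 8.43 and 80.1% of them lay above the floor, whereas the lower genes had a median of 5.59 and 51.3% lay above it, against 65.9% of all genes. When all genes were divided into 5 equal parts by mean signal, the part between 8.56 and 11.02 held 103 higher and 9 lower genes, and the brightest part held 33 higher and 4 lower ones. The dimmest part, with means up to 4.27, held 37 higher and 36 lower genes, so that the excess of higher genes lay among clear signals. At 3-fold the counts above the floor were 74 higher and 5 lower, and at 4-fold they were 22 and 3.

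**Figure D1:**
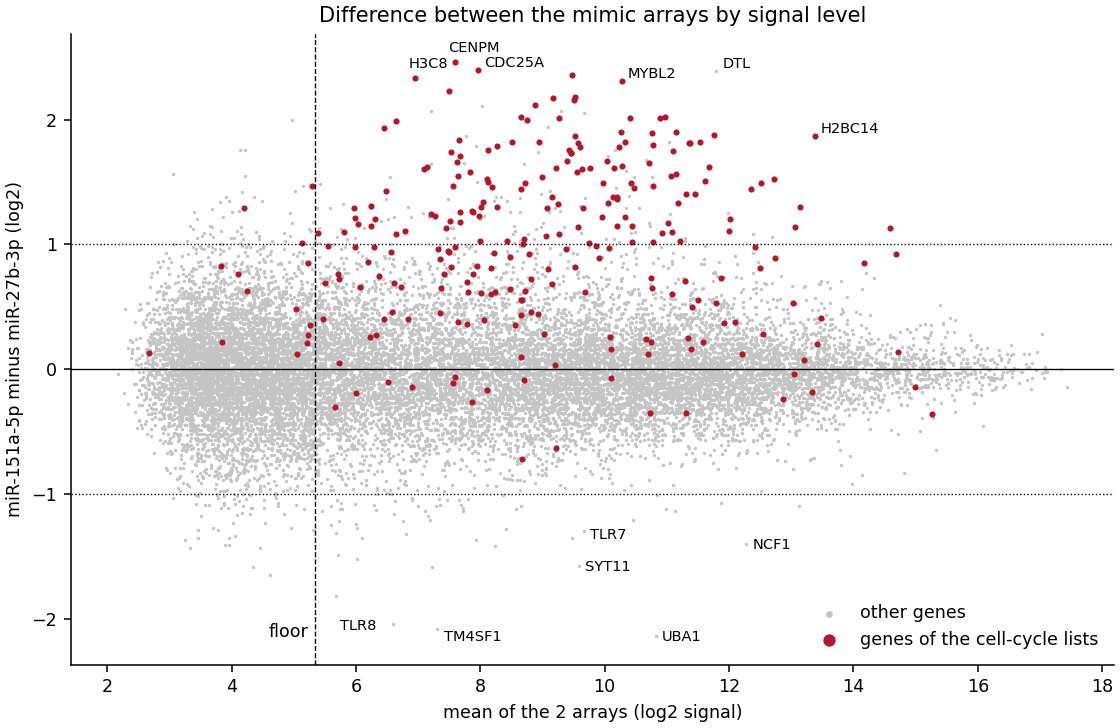
Log2 signal with miR-151a-5p minus that with miR-27b-3p against the mean of both, 1 point per gene. Red points are the 257 measured genes of the 10 cell-cycle lists, dotted lines mark 2-fold and the dashed line the floor of 5.34; of the 257 red points 238 lie above 0 and 135 at or above the upper dotted line, and none lies below the lower one.

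The genes at the top were those of chromosome duplication and segregation. CENPM, a protein of the inner kinetochore, had a log2 signal of 8.82 on the miR-151a-5p array and 6.36 on the miR-27b-3p array, the largest difference above the floor (2.46, 5.50-fold). CDC25A, the phosphatase that activates CDK2 at the start of DNA synthesis, was at 9.16 with miR-151a-5p and 6.76 with miR-27b-3p (2.40, 5.28-fold). DTL, the substrate receptor that marks CDT1 for destruction during S phase, was at 12.99 with miR-151a-5p and 10.60 with miR-27b-3p (2.39, 5.24-fold). Each of these levels lay above the floor of 5.34, those of CENPM and CDC25A with miR-27b-3p by the least. KIFC1, a minus-end kinesin of the spindle, was at 10.65 with miR-151a-5p and 8.29 with miR-27b-3p (2.36), and MYBL2, a transcription factor of late S phase and mitosis, at 11.43 with miR-151a-5p and 9.12 with miR-27b-3p (2.31). The histone gene H3C8 was at 8.11 with miR-151a-5p and 5.78 with miR-27b-3p (2.33). Histone genes have near-identical copies, so the value of a single member is uncertain. The rest of the 15 highest genes were FOXM1 (2.23), the condensin subunit NCAPH (2.18), the helicase factor CDC45 (2.17), the recombination gene XRCC2 (2.16), E2F8 (2.12), the cohesion factor CDCA5 (2.11), ZNF367 (2.07), the helicase gene MCM8 (2.07) and TACC3 (2.05), which stabilizes spindle microtubules. On the array titled let-7d-5p all 15 lay between the pair, for example CENPM at 7.55, CDC25A at 7.09 and DTL at 11.54. A gene picked for a wide gap leaves more room for another value inside it, so this order is a description.

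**Figure D2:**
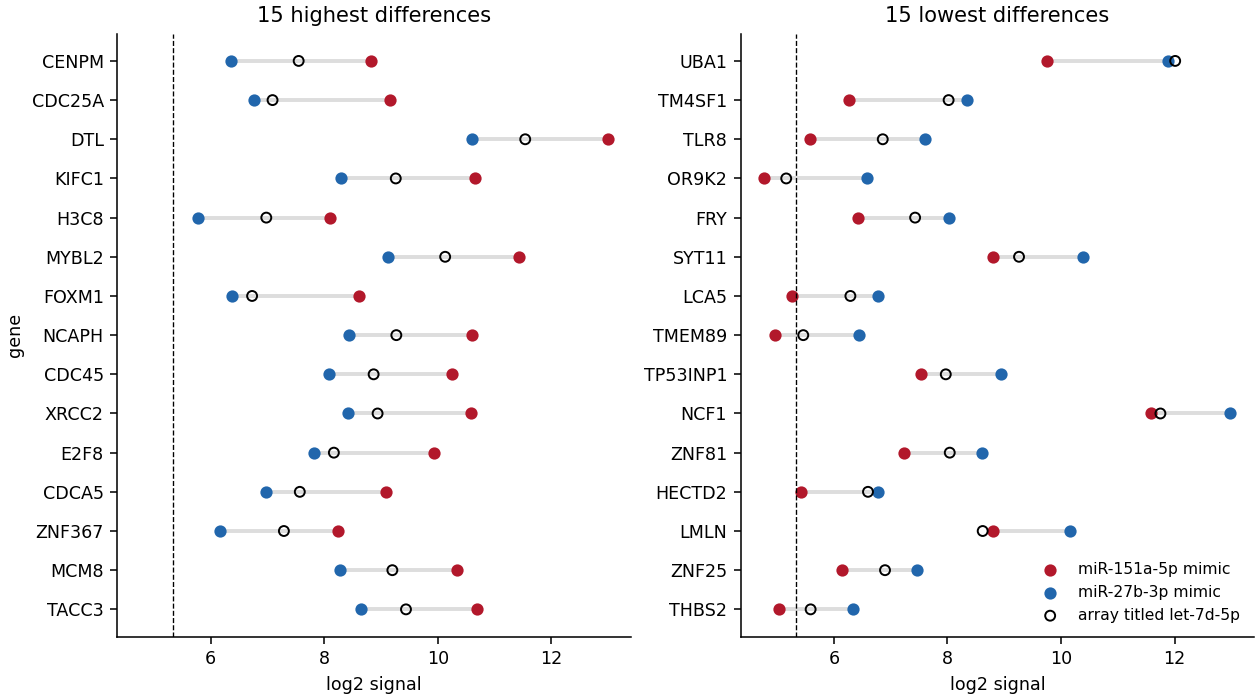
Log2 signals of the 15 genes with the highest and the 15 with the lowest differences among genes above the floor, on the miR-151a-5p array (red), the miR-27b-3p array (blue) and the array titled let-7d-5p (open circles). The dashed line is the floor of 5.34; the open circle lies between the coloured points in all 15 genes on the left and in 13 of 15 on the right, the exceptions being UBA1 and LMLN.

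The cell-cycle lists held a large share of the higher genes and none of the 2-fold lower ones. Of 273 listed genes 257 were measured, 243 of them above the floor, and 238 (92.6%) were higher with miR-151a-5p, against 46.6% of all genes, while 19 were lower. At least 2-fold higher were 135 (52.5%), against 1.62% of all genes, and none was 2-fold lower. Their median difference was 1.03 (2.04-fold), against -0.02 over all genes. Read from the other side, 135 of the 287 genes that were 2-fold higher (47.0%), 132 of the 230 that were so above the floor (57.4%) and 55 of the 74 that were 3-fold higher (74.3%) stood on these lists, and 0 of the 115 that were 2-fold lower. The lists were chosen with earlier results of these arrays known, so the counts describe them and are no independent evidence. In a bulk sample, more cells in cycle and more of these transcripts per cell cannot be told apart.

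Licensing and firing of replication origins, the steps that load the MCM helicase on DNA and switch it on, showed the highest list median (1.29, 2.44-fold). Of 28 measured genes 26 were higher and 17 of them at least 2-fold. All 10 genes of helicase loading were higher, with a median of 1.53. CDT1, the loading factor, was at 7.41 with miR-151a-5p and 5.48 with miR-27b-3p (1.93). CDC6, its partner, was at 11.98 with miR-151a-5p and 10.23 with miR-27b-3p (1.75), and the helicase subunit MCM2 at 10.23 with miR-151a-5p and 8.56 with miR-27b-3p (1.67). The 12 genes of helicase activation were likewise higher, with a median of 1.07, among them CDC45 at 10.25 with miR-151a-5p and 8.08 with miR-27b-3p, GINS2 at 9.86 with miR-151a-5p and 8.04 with miR-27b-3p (1.82) and GINS1 at 10.32 with miR-151a-5p and 8.59 with miR-27b-3p (1.73). The origin recognition complex was divided. ORC6 was at 8.53 with miR-151a-5p and 6.82 with miR-27b-3p (1.71), whereas 2 of its 6 measured subunits were lower, down to -0.63.

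At the replication fork all 34 measured genes were higher, 22 of them at least 2-fold, with a median of 1.19. POLE2, a subunit of the leading-strand polymerase, was at 7.64 with miR-151a-5p and 5.65 with miR-27b-3p (1.99), and PRIM1, the primase subunit that starts each new strand, at 10.48 with miR-151a-5p and 8.67 with miR-27b-3p (1.81). FEN1, the flap endonuclease of lagging-strand synthesis, was at 12.28 with miR-151a-5p and 10.47 with miR-27b-3p (1.81). CHAF1B and CHAF1A, subunits of the chaperone that places histones behind the fork, differed by 2.01 and 1.76. Sliding clamp and clamp loader genes were also higher, with RFC3 at 11.10 with miR-151a-5p and 9.47 with miR-27b-3p (1.63). The supply of deoxynucleotides moved alongside, with 10 of 11 genes higher and a median of 1.02. RRM2, the small subunit of ribonucleotide reductase, was at 11.98 with miR-151a-5p and 9.96 with miR-27b-3p (2.02), TK1, thymidine kinase, at 11.41 with miR-151a-5p and 9.40 with miR-27b-3p (2.01), and TYMS, thymidylate synthase, at 12.48 with miR-151a-5p and 10.86 with miR-27b-3p (1.62). The exception, picked out for that after its value was seen, was RRM2B, the reductase subunit used outside S phase and a p53 target, at 11.13 with miR-151a-5p and 11.48 with miR-27b-3p (-0.35).

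Histone genes that are transcribed with DNA synthesis were higher in 45 of 46 cases, 25 of them at least 2-fold, with a median of 1.06. All classes took part, at medians of 1.14 for H1, 1.11 for H2A, 1.09 for H2B, 1.46 for H3 and 0.83 for H4. H2BC14 was at 14.31 with miR-151a-5p and 12.44 with miR-27b-3p (1.87, 3.66-fold), H2AC11 at 12.45 with miR-151a-5p and 10.63 with miR-27b-3p (1.82), and H1-3 at 9.42 with miR-151a-5p and 7.60 with miR-27b-3p (1.82). Most of these genes lie in clusters on chromosome 6, and they made up 24 of the 37 genes of that chromosome that were 2-fold higher. The list holds near-identical copies, so its members are not separate measurements.

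Cyclins, kinases and phosphatases had a median of 1.20, with 23 of 27 genes higher and 15 at least 2-fold. CCNE2, the cyclin E that drives G1/S passage, was at 12.09 with miR-151a-5p and 10.19 with miR-27b-3p (1.90), CCNA2, cyclin A, at 11.53 with miR-151a-5p and 9.88 with miR-27b-3p (1.65), and CDK1, the mitotic kinase, at 10.34 with miR-151a-5p and 8.76 with miR-27b-3p (1.58). CDK2 was at 11.93 with miR-151a-5p and 10.37 with miR-27b-3p (1.56). Other members did not reach 2-fold. Among these, CDK4 (0.41) and CDK6 (-0.24), which act with D cyclins in early G1, were closer, and so were the 3 D cyclins (-0.14 to 0.20). The mitotic genes CCNB1 (0.81), CCNB2 (0.55) and AURKA (0.25) also stayed below 2-fold, whereas PLK1 (1.36), AURKB (1.31) and CDC25C (1.20) passed it. These genes are given after their values were seen. WEE1, the kinase that restrains CDK1, was at 11.89 with miR-151a-5p and 9.88 with miR-27b-3p (2.01), so a restraining gene stood among the activating ones. MKI67, the widely used proliferation marker, was at 10.90 with miR-151a-5p and 9.45 with miR-27b-3p (1.45).

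Of the 6 measured inhibitors of cyclin-dependent kinases 5 were lower, against 52.1% of all genes, at a median of -0.24, and none reached 2-fold. With 6 genes the count is small. CDKN1B, which encodes p27, was at 8.31 with miR-151a-5p and 9.03 with miR-27b-3p (-0.72). CDKN1A, which encodes p21, was at 15.09 with miR-151a-5p and 15.45 with miR-27b-3p (-0.36). Beside the pair, the array titled let-7d-5p had CDKN1B at 8.26 and CDKN1A at 15.10. For both genes the miR-27b-3p array thus had the highest value of these arrays.

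The factors that direct these genes were unequal. MYBL2, FOXM1, E2F8 and E2F1 were the most different of 20 genes, whose median was only 0.22 with 15 higher. FOXM1, the activator of mitotic genes, was at 8.61 with miR-151a-5p and 6.38 with miR-27b-3p (2.23). E2F1, an activator of DNA synthesis genes that is itself transcribed through E2F sites, was at 8.58 with miR-151a-5p and 6.74 with miR-27b-3p (1.84), and E2F8, a repressor that limits E2F1 late in S phase, at 9.94 with miR-151a-5p and 7.82 with miR-27b-3p (2.12). RBL1, which encodes the RB relative p107, was at 11.84 with miR-151a-5p and 10.51 with miR-27b-3p (1.33), and TFDP1, the dimer partner of E2F, at 13.18 with miR-151a-5p and 12.29 with miR-27b-3p (0.89). The 5 MuvB core genes ranged between 0.12 and 0.62. E2F6, a repressor of the same family and a reported target of miR-151a-5p, was at 7.73 with miR-151a-5p and 7.99 with miR-27b-3p (-0.26).

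Genes of DNA repair by homologous recombination and of the Fanconi pathway, which mends crosslinks at forks, were higher in all 22 measured cases, 9 of them at least 2-fold, at a median of 0.97. XRCC2 was at 10.58 with miR-151a-5p and 8.42 with miR-27b-3p (2.16), EXO1, an end-resecting nuclease, at 11.70 with miR-151a-5p and 9.81 with miR-27b-3p (1.89), and FANCI at 10.31 with miR-151a-5p and 8.55 with miR-27b-3p (1.76). BRCA1 was at 9.76 with miR-151a-5p and 8.22 with miR-27b-3p (1.54). Mitotic genes had similar medians. Kinetochore and spindle checkpoint genes were higher in 30 of 30 cases, 19 of them at least 2-fold, at a median of 1.13, with SGO1, the protector of centromeric cohesion, at 9.75 with miR-151a-5p and 7.75 with miR-27b-3p (2.00). Spindle motors, condensin and cytokinesis genes were higher in 33 of 34 cases, 18 of them at least 2-fold, at a median of 1.06. Among them KIF2C, a microtubule depolymerase, was at 9.66 with miR-151a-5p and 7.64 with miR-27b-3p (2.02), and PRC1, which bundles the spindle midzone, at 11.22 with miR-151a-5p and 9.32 with miR-27b-3p (1.90).

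**Figure D3:**
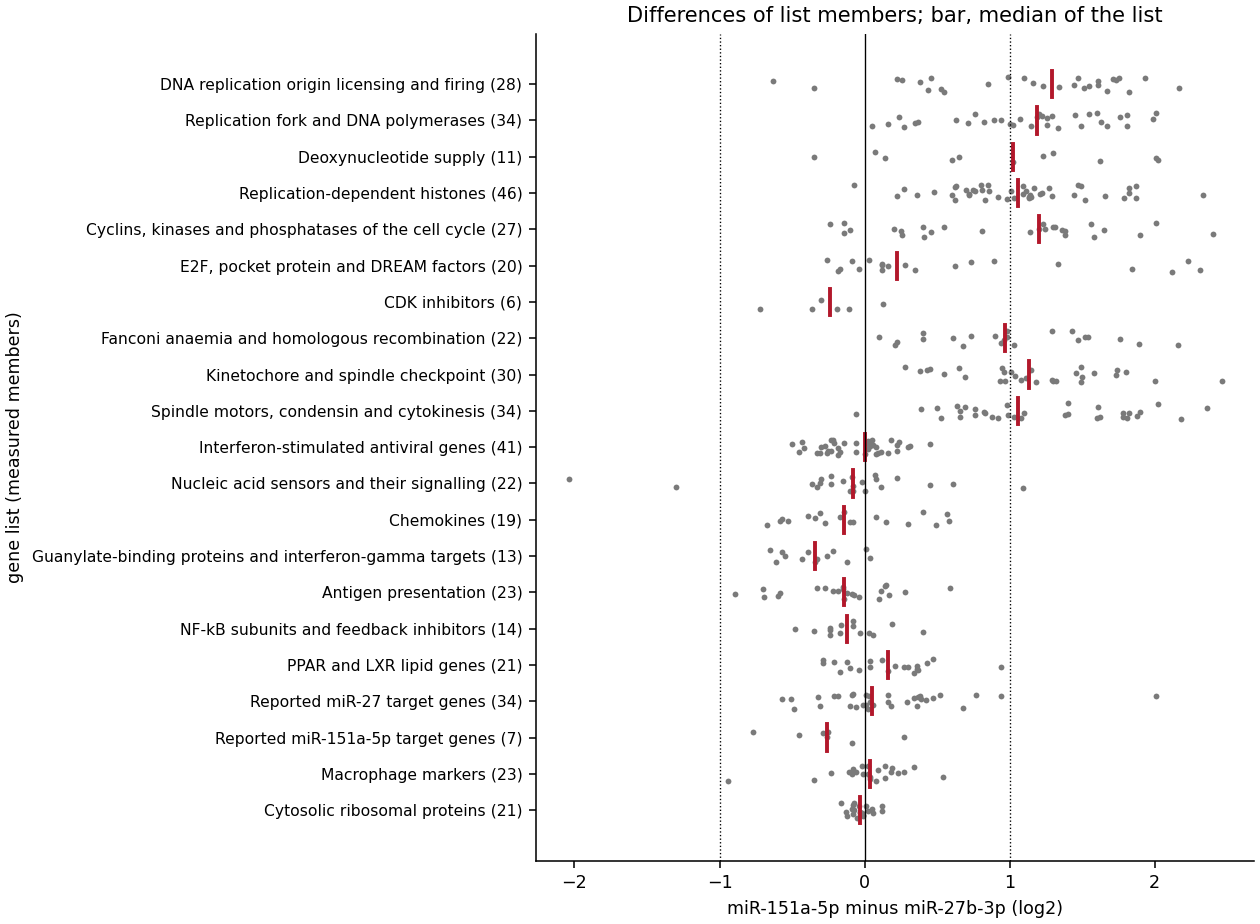
Log2 signal with miR-151a-5p minus that with miR-27b-3p for the measured members of 21 gene lists, 1 grey point per gene, with the number of measured members in brackets and the list median as a red bar. Dotted lines mark 2-fold; the medians of 8 cell-cycle lists lie between 0.97 and 1.29, that of E2F and DREAM factors at 0.22 and that of CDK inhibitors at -0.24, and those of the innate immune, lipid, target, macrophage and ribosomal lists between -0.34 and 0.16.

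Against the array titled let-7d-5p the split of the cell-cycle difference was uneven. Of the 257 genes 233 had more signal with miR-151a-5p than on that array, at a median of 0.75, and 200 were higher there than on the miR-27b-3p array, at a median of 0.25. Its level lay between the pair for 190 genes (73.9%), against 36.1% of all genes. A wide gap leaves more room for a value inside it. Above the floor the share was 91.7% of genes 2-fold higher and 88.1% of genes 2-fold lower. The share for the cell-cycle genes is therefore a description only. With only 1 array for each mimic, and with the identity of that mimic disputed, which of the arrays departs from an untreated state cannot be told from these 3.

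Of the 74 genes that were 3-fold higher above the floor, 19 stood on no cell-cycle list. Besides DTL, CDCA5, ZNF367, MCM8 and TACC3 they included MELK, a mitotic kinase, at 11.39 with miR-151a-5p and 9.38 with miR-27b-3p (2.01), LMNB1, lamin B of the nuclear envelope, at 10.91 with miR-151a-5p and 9.20 with miR-27b-3p (1.71), and ESCO2, an acetyltransferase that locks cohesin on replicated DNA, at 11.13 with miR-151a-5p and 9.54 with miR-27b-3p (1.59). APOBEC3B, a cytidine deaminase of DNA, was at 11.04 with miR-151a-5p and 9.28 with miR-27b-3p (1.76). TMEM97, a sterol-related membrane protein also known as the sigma-2 receptor, was at 11.95 with miR-151a-5p and 10.13 with miR-27b-3p (1.82). NET1, a guanine nucleotide exchange factor, was at 9.52 with miR-151a-5p and 7.88 with miR-27b-3p (1.64). The others were WDR76 (1.94), DDX12P (1.87), CDCA2 (1.79), STIL (1.74), ATAD2 (1.68), PSMC3IP (1.65), MTFR2 (1.64) and FAM111B (1.60). DDX12P is a pseudogene with a near-identical coding relative, so its value is uncertain. Below the floor, SPAG5 (2.00), GRAMD1C (1.76) and HTR5A (1.76) were 3-fold higher and AMPH (-1.59) and ENPP5 (-1.65) 3-fold lower, and at such dim signals their sizes are less certain.

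Promoters of the higher genes held E2F motifs more often than promoters at large. The sequence searched was TTT, then CC, GG, CG or GC, then CGC, on either strand, within 250 bases before and 50 bases after the start site that RefSeq gives on GRCh38.p14. A promoter was matched for 14250 of the 17687 genes. The motif was present in 4.44% of all promoters, in 22.2% of those of genes 2-fold higher with miR-151a-5p (51 of 230) and in 3.06% of those of genes 2-fold lower (3 of 98). By the size of the difference the share was 38.1% of 63 promoters for genes at least 3-fold higher, 16.2% between 2- and 3-fold, 5.83% between 1.5- and 2-fold, 4.20% for genes within 1.5-fold, 1.69% between 1.5- and 2-fold lower and 3.06% for genes at least 2-fold lower, so that it fell step by step on the higher side only. Among higher genes on no cell-cycle list the share was 14.7% (17 of 116). Base composition was alike, with a median GC content of 62.0% in promoters of higher genes, 59.7% in those of lower genes and 63.0% overall. Replication-dependent histone promoters differed, with a median GC content of 42.3%. Of 42 such promoters 12 (28.6%) held the motif, but 0 held it when only CC or GG was allowed in its middle. The motif TTTGAA, known as CHR and bound by MuvB, was in 30.4% of promoters of higher genes, 16.3% of those of lower genes and 12% of all. Unlike the E2F share it did not rise with size, at 22.2% (14 of 63) for genes at least 3-fold higher. The interferon-response motif, GAAA, any 2 bases, then GAAA, was in 3.04% of promoters of higher genes, 6.12% of those of lower genes and 3.11% of all, although 63.6% of the promoters of 33 interferon-stimulated genes held it. The motifs may overlap in a promoter, and a match is a description of letters and no evidence that a factor was bound.

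Promoters of 4 of the 15 highest genes are shown because each holds the E2F motif, in capitals, close to its start site. Each runs 5′ to 3′ in the direction of transcription over 300 bases, with the start site after the first 250. CDC25A lies at chr3:48188368-48188667 on the minus strand with the motif at -44 from the start site, DTL at chr1:212035498-212035797 on the plus strand with the motif at -8, CDCA5 at chr11:65083991-65084290 on the minus strand with the motif at -45, and ZNF367 at chr9:96418321-96418620 on the minus strand with motifs at -35 and -21, both read on the opposite strand.
CDC25A: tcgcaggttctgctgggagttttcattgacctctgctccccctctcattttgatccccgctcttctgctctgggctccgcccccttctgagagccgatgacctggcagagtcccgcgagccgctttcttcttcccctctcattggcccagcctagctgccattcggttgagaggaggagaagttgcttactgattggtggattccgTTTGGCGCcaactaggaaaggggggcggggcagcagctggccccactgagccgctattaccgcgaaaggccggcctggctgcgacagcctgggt
DTL: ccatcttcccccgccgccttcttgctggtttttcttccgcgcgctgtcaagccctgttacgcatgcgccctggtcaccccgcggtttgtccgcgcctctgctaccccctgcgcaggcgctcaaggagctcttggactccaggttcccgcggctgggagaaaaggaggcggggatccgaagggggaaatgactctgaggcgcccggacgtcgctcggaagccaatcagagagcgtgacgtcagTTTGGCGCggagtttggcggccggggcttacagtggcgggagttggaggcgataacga
CDCA5: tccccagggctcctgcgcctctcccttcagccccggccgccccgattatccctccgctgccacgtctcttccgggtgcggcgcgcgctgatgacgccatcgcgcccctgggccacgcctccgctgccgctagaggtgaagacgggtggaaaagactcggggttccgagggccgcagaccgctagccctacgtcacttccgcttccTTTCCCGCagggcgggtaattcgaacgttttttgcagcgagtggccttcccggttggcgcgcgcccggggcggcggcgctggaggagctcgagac
ZNF367: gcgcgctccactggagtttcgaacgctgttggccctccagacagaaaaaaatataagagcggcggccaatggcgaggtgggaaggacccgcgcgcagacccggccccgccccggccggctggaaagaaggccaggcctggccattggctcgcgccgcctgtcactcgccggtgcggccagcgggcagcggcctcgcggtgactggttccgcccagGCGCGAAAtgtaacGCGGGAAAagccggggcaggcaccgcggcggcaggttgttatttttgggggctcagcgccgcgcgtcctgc

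ZNF367, a zinc finger gene, was at 8.24 with miR-151a-5p and 6.17 with miR-27b-3p (2.07), with 7.29 on the array titled let-7d-5p. CDCA5, which encodes sororin, was at 9.08 with miR-151a-5p and 6.97 with miR-27b-3p (2.11), with 7.57 on that array. All 4 printed promoters hold a match that begins no more than 45 bases before the start site. XRCC2 and MCM8 also held a match, at 21 and 26 bases after it. The promoters of KIFC1, H3C8, MYBL2, NCAPH, CDC45 and TACC3, also among the 15 highest genes, held none of the 4 versions searched. Other forms of an E2F site were not searched for. For CENPM, FOXM1 and E2F8 no promoter was matched.

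**Figure D4:**
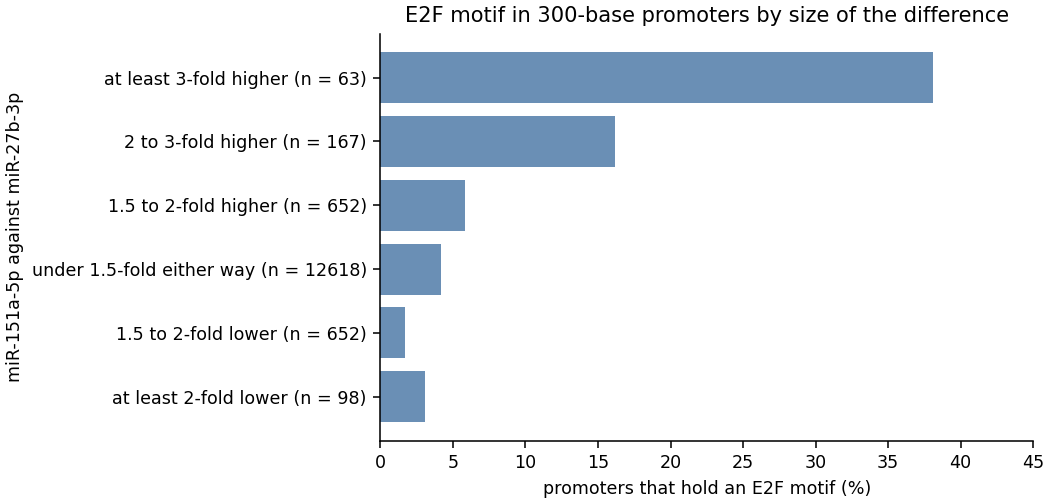
Share of promoters (%) that hold the E2F motif, by the size of the difference, miR-151a-5p against miR-27b-3p; n is the number of promoters. The bars stand at 38.1% for genes at least 3-fold higher with miR-151a-5p, 4.20% for genes within 1.5-fold, 1.69% for genes 1.5 to 2-fold lower and 3.06% for genes at least 2-fold lower.

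The lower side was smaller and more mixed. UBA1, the main enzyme that activates ubiquitin, had the lowest difference, at 9.75 with miR-151a-5p and 11.89 with miR-27b-3p (-2.14, 4.41-fold lower). On the array titled let-7d-5p UBA1 was at 12.01, so that of the 3 arrays only that of miR-151a-5p was low. The other E1 enzymes of ubiquitin-like proteins lay near 0. Their differences ran between -0.18 for UBA3, of the NEDD8 pathway, and 0.34 for its partner NAE1, and UBA6, the second ubiquitin E1, was at 9.67 with miR-151a-5p and 9.81 with miR-27b-3p (-0.14). TM4SF1, a tetraspanin-like surface protein, was at 6.27 with miR-151a-5p and 8.35 with miR-27b-3p (-2.08, 4.23-fold lower), with 8.02 on the array titled let-7d-5p. SYT11, a membrane trafficking protein, was at 8.80 with miR-151a-5p and 10.38 with miR-27b-3p (-1.58), with 9.26 on that array. TP53INP1, a p53-induced gene of cell death and autophagy, was at 7.53 with miR-151a-5p and 8.95 with miR-27b-3p (-1.42), and NCF1, a subunit of the phagocyte NADPH oxidase, at 11.58 with miR-151a-5p and 12.98 with miR-27b-3p (-1.40). NCF1 has near-identical pseudogenes, so its value is uncertain. The rest of the 15 lowest were TLR8, OR9K2 (-1.82), FRY (-1.59), LCA5 (-1.52), TMEM89 (-1.49), ZNF81 (-1.37), HECTD2 (-1.35), LMLN (-1.35), ZNF25 (-1.32) and THBS2 (-1.31). OR9K2, LCA5, TMEM89 and THBS2 lay below the floor on the miR-151a-5p array, and OR9K2 is itself an olfactory receptor gene of the set that gave the floor.

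Of 22 measured genes of nucleic acid sensing 2 were at least 2-fold lower, TLR8 and TLR7, both receptors of RNA in endosomes, and 1 was at least 2-fold higher. Over all genes the shares were 0.65% lower and 1.62% higher, and with 22 genes these counts are small. TLR8, which senses single-stranded RNA, was at 5.57 with miR-151a-5p, just over the floor, and 7.61 with miR-27b-3p (-2.04, 4.11-fold lower). TLR7, its neighbour in sequence and function, was at 9.01 with miR-151a-5p and 10.31 with miR-27b-3p (-1.30). The array titled let-7d-5p had TLR8 at 6.86, between the pair, and TLR7 at 8.80, below both. TLR3, the endosomal receptor of double-stranded RNA, did not share the gap and was at 7.05 with miR-151a-5p and 7.28 with miR-27b-3p (-0.23). In the cytosol RIGI was at 12.43 with miR-151a-5p and 12.74 with miR-27b-3p (-0.31) and IFIH1, which encodes MDA5, at 12.66 with miR-151a-5p and 12.76 with miR-27b-3p (-0.10). The one sensor that was 2-fold higher was CGAS, the DNA sensor that makes cyclic GMP-AMP, at 10.16 with miR-151a-5p and 9.07 with miR-27b-3p (1.09). Over the 22 genes the median was -0.08. IRF3 was at 4.85 on both arrays, below the floor.

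Interferon-stimulated genes did not separate the arrays as a group. Of 41 measured genes 20 were higher and 20 lower with miR-151a-5p, none by 2-fold, at a median of 0.00, and their differences ran from -0.50 to 0.45. SAMD9, an antiviral translation inhibitor, was at 12.71 with miR-151a-5p and 13.21 with miR-27b-3p (-0.50), and IRF7, a factor that amplifies interferon production, at 6.79 with miR-151a-5p and 6.34 with miR-27b-3p (0.45). CXCL10, an interferon-induced chemokine, was at 12.35 with miR-151a-5p and 12.88 with miR-27b-3p (-0.53), with 12.89 on the array titled let-7d-5p. CXCL11, a ligand of the same receptor, was at 8.84 with miR-151a-5p and 8.54 with miR-27b-3p (0.30). Of 5 monocyte attractants 4 were higher, against 46.6% of all genes: CCL7 (0.58), CCL2 (0.57), CCL8 (0.40) and CCL5 (0.08), and CCL3 was lower (-0.34). All 6 neutrophil attractants were lower, against 52.1% of all genes. Their differences ran from -0.14 for CXCL8 to -0.67 for CXCL6, which lay below the floor on both arrays. Over the 19 measured chemokines the median was -0.14, with 7 higher, 12 lower and none 2-fold apart.

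Guanylate-binding proteins and other targets of interferon-gamma were lower in 11 of 13 cases, against 52.1% of all genes, at a median of -0.34, though none reached 2-fold. IRF8, a myeloid transcription factor, was at 8.52 with miR-151a-5p and 9.17 with miR-27b-3p (-0.65), and GBP5, a guanylate-binding protein of the inflammasome, at 8.73 with miR-151a-5p and 9.30 with miR-27b-3p (-0.57). In antigen presentation 16 of 23 genes were lower, against the same 52.1%, at a median of -0.14, and TAP1, the peptide transporter, was the most different at 10.26 with miR-151a-5p and 11.15 with miR-27b-3p (-0.89). Cytokines and TNF superfamily ligands were even, with 12 higher and 12 lower and a median of 0.01. Genes of the NF-kB list were lower in 10 of 14 cases, against 52.1% of all genes, at a median of -0.12. Lower were 4 of 5 subunits, 3 of 6 feedback inhibitors and all 3 target genes. CSF1, the macrophage growth factor, was at 11.55 with miR-151a-5p and 11.03 with miR-27b-3p (0.52), and IL18 at 6.41 with miR-151a-5p and 6.95 with miR-27b-3p (-0.54).

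Genes reported as targets of either microRNA were compared next, since a target of miR-27b-3p would be expected higher, and a target of miR-151a-5p lower, in this contrast. Of 34 measured miR-27 targets 22 (64.7%) were higher and 12 lower, at a median of 0.05, against 46.6% higher and a median of -0.02 over all genes. WEE1 was the only one past 2-fold. GPAM, which starts triglyceride synthesis, was at 6.50 with miR-151a-5p and 5.56 with miR-27b-3p (0.94), CYP1B1, a cytochrome P450, at 12.12 with miR-151a-5p and 11.35 with miR-27b-3p (0.77), and CCNG1, cyclin G1, at 12.93 with miR-151a-5p and 12.25 with miR-27b-3p (0.68). On the array titled let-7d-5p these 3 genes were at 6.62, 12.16 and 12.93, close to the miR-151a-5p array, and WEE1 was at 11.14. PPARG, the nuclear receptor of lipid storage, was at 11.75 with miR-151a-5p and 11.38 with miR-27b-3p (0.37). In the other direction APC, the WNT pathway scaffold, was at 9.68 with miR-151a-5p and 10.25 with miR-27b-3p (-0.57). WEE1 is a cell-cycle gene too. Its difference lay above the median of the cell-cycle lists (1.03) and inside their range (-0.72 to 2.46).

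Of the 7 reported miR-151a-5p targets 6 were lower with miR-151a-5p, against 52.1% of all genes, at a median of -0.26, and none reached 2-fold. ARHGDIA was at 13.42 with miR-151a-5p and 14.19 with miR-27b-3p (-0.77). ATM, the kinase that signals DNA breaks, was at 11.04 with miR-151a-5p and 11.49 with miR-27b-3p (-0.45), and APH1A, a subunit of gamma-secretase, at 14.03 with miR-151a-5p and 14.32 with miR-27b-3p (-0.29). CYTH2, an exchange factor for ARF proteins (-0.25), and SMARCA5, the ATPase of a chromatin remodeller (-0.09), were closer, and CASZ1, a zinc finger transcription factor, was higher, at 9.46 with miR-151a-5p and 9.19 with miR-27b-3p (0.27). ARHGDIA was at 14.22 on the array titled let-7d-5p, so that the miR-151a-5p array had the lowest value of these arrays. Genes of the microRNA machinery lay at a median of -0.07, with TNRC6B, a silencing partner of Argonaute, at 9.83 with miR-151a-5p and 10.80 with miR-27b-3p (-0.97) and its relative TNRC6A at 11.65 with miR-151a-5p and 11.10 with miR-27b-3p (0.55).

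**Figure D5:**
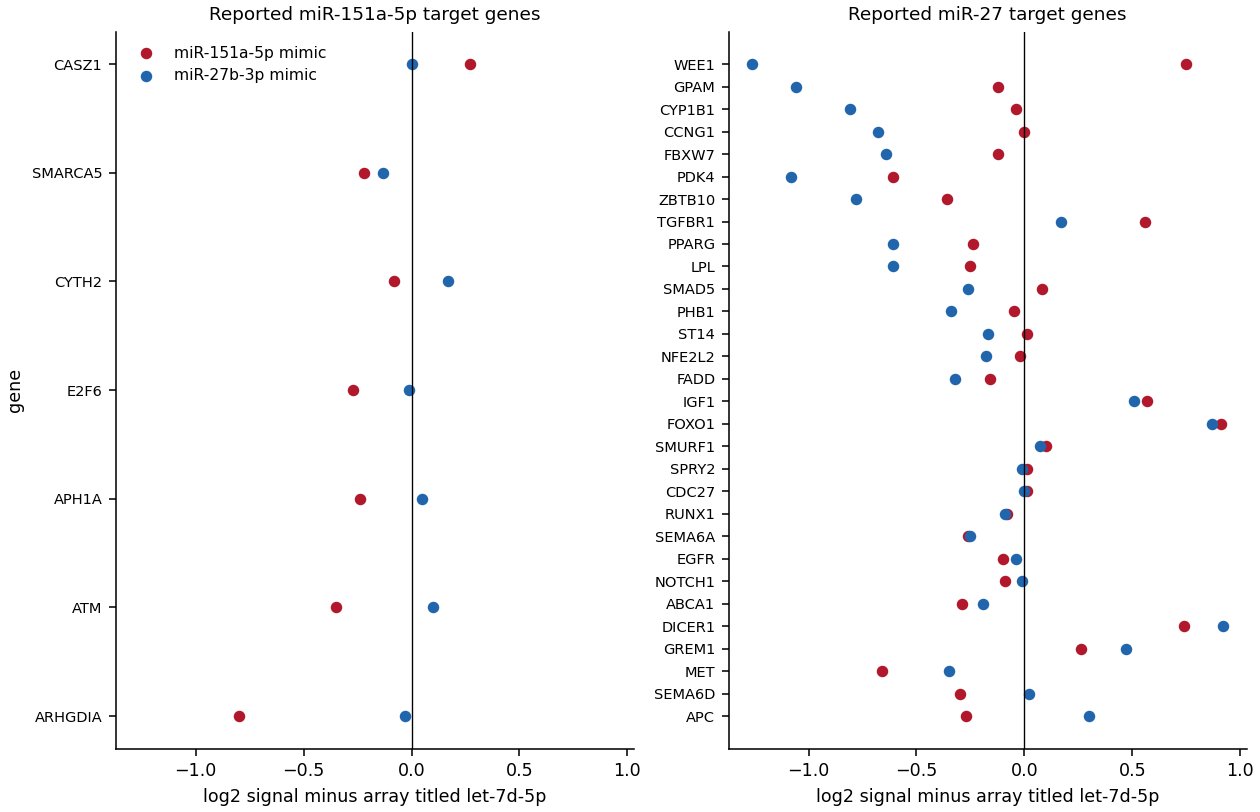
Log2 signals of reported miR-151a-5p targets (left) and miR-27 targets (right) above the floor, each as the difference from the array titled let-7d-5p, on the miR-151a-5p array (red) and the miR-27b-3p array (blue). ARHGDIA shows the widest gap on the left (-0.77 between the mimics) and WEE1 on the right (2.01), and in 6 of 7 genes on the left the red point lies below the blue one.

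Lipid genes under PPAR and LXR control were higher in 14 of 21 cases, against 46.6% of all genes, none by 2-fold, at a median of 0.16. Apart from GPAM the most different were PDK4, which restrains pyruvate oxidation, at 6.58 with miR-151a-5p and 6.11 with miR-27b-3p (0.47), and CPT1A, the carnitine transferase of fatty acid oxidation, at 9.02 with miR-151a-5p and 8.59 with miR-27b-3p (0.43). Of this list PPARG, GPAM, PDK4, LPL and ABCA1 are also on the miR-27 target list. Cholesterol synthesis genes had a median of 0.10 and hypoxia and glycolysis genes a median of -0.06. Targets of p53 had a median of -0.03, with 9 higher and 10 lower of 19 and TP53INP1 the only one past 2-fold, and the others ran from -0.55 for SESN1 to 0.68 for CCNG1. Genes of the integrated stress response had a median of 0.06, with DDIT4, an inhibitor of mTORC1, at 7.51 with miR-151a-5p and 8.14 with miR-27b-3p (-0.63). Among junction, adhesion and growth receptor genes 15 of 22 were lower, against 52.1% of all genes, although 4 of the 22 lay below the floor and 7 of the 10 integrins were higher. CLDN1, a tight junction protein, was at 6.64 with miR-151a-5p and 7.48 with miR-27b-3p (-0.84).

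The labelled cell type was checked against its markers. Macrophage genes were measured in all 23 listed cases, 22 of them above the floor, with CD68, CD14, CSF1R and ITGAM at 11.09 or more with miR-151a-5p and 11.07 or more with miR-27b-3p, while MRC1 was below the floor on both arrays. Their median difference was 0.04, and MS4A4A, at 5.13 with miR-151a-5p and 6.07 with miR-27b-3p (-0.94), was the most different. Myeloid progenitor genes had a median of 0.01, with MYC at 11.63 with miR-151a-5p and 11.11 with miR-27b-3p (0.52). T and NK cell markers had a median of 0.18, with 10 of 15 higher, against 46.6% of all genes, but 7 of the 15, CD3D among them, lay below the floor. The log2 of their summed signals was 12.21 with miR-151a-5p and 12.71 with miR-27b-3p. Bright members weigh most in such a sum. Here they were CD4, at 11.10 with miR-151a-5p and 11.82 with miR-27b-3p, and GNLY, at 10.55 with miR-151a-5p and 11.02 with miR-27b-3p. B and plasma cell markers (-0.15, 6 of 8 lower, 5 of 8 above the floor), epithelial markers (-0.07, 8 of 12 lower, 3 of 12 above the floor) and fibroblast and endothelial markers (-0.24, 11 of 12 lower, 7 of 12 above the floor) held no gene that was 2-fold apart, and 52.1% of all genes were lower. The log2 of the summed signals was 9.63 with miR-151a-5p and 9.73 with miR-27b-3p for B and plasma cells, 10.39 with miR-151a-5p and 10.54 with miR-27b-3p for epithelium, and 14.03 with miR-151a-5p and 14.18 with miR-27b-3p for fibroblasts and endothelium. EPCAM, CDH1, MS4A1 and KDR, defining genes of those types, were below the floor on both arrays, whereas others of the lists lay clearly above it. CD79A was at 7.92 with miR-151a-5p and 8.03 with miR-27b-3p, KRT8 at 9.26 with miR-151a-5p and 9.53 with miR-27b-3p, COL1A2 at 8.79 with miR-151a-5p and 9.02 with miR-27b-3p, and PECAM1, which myeloid cells also carry, at 13.95 with miR-151a-5p and 14.09 with miR-27b-3p. The part of other cell types in the differences was not tested. Cytosolic ribosomal proteins (-0.03, 21 genes between -0.16 and 0.12) and commonly used reference genes (-0.03) lay close to 0.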

How the data were processed

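RNA of 4 cultures was hybridised to Clariom S human arrays, with 1 array per group and no replicates, which bounds the precision of every value. The deposited values are log2 signals per probe set, which the authors made with RMA in Transcriptome Analysis Console 4.0 according to the submitters' processing notes. RMA corrects background, equalizes the arrays and summarizes probes, so a shift common to all genes would have been removed. The genome build behind the probe sets: not given in the sources used here. RNA was extracted with Trizol per the labels and with an RNeasy kit per the study's methods, and the labels describe the line as lymphocyte-like in 1 field. No further normalization was applied and no authors' comparison was used. Of 21448 probe sets, 17709 (82.6%) named exactly 1 gene in the platform annotation and 3739 did not. Where more than 1 probe set named a gene (20 genes), the brightest was kept. The members, the 35 gene lists and the rules were chosen with earlier results of these data known. Genes were named if they were among the 15 highest or the 15 lowest of those above the floor, at least 3-fold apart, among the up to 6 most different members of a list or the most different of a role in it, or on a short list of fixed names, and defining cell type markers are named besides. With 1 array a side no test was made. Alternatives were quantile normalization, loess of the difference on the mean, a pseudocount of 32, other size rules and floors, the mean in place of the median, and fewer motif versions. Promoter and microRNA sequences came from RefSeq (GRCh38.p14). Calculations used Python 3.11.15, numpy 2.4.6, pandas 2.3.3, statsmodels 0.14.6 and matplotlib 3.10.9 and were tested on simulated data.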

Additional observations from a re-analysis of the deposited data

How the results depend on the processing

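Under the alternatives run, only values near 0 changed sign: with loess, p53 targets (0.01) and CLDN7 (0.01), and over members above the floor, cytokines (-0.09). No paired analysis was possible because each group held 1 array. The number of genes at least 2-fold higher with miR-151a-5p was 181 with a pseudocount of 32 on the linear scale, 1093 at 1.5-fold and 77 at 3-fold, and the number at least 2-fold lower was 21, 924 and 7 under the same settings, 59 with the mean of the arrays at or above the floor and 47 with both arrays at or above it. RMA had already equalized the arrays, which left quantile normalization little to change. Quantile normalization and loess left every one of the 274 named genes within 0.1 of its value, whereas the pseudocount moved 75 of them by more. It lowered the list medians to 1.14 for origin licensing, 1.05 for the replication fork, 0.83 for histones, 0.92 for cyclins and kinases, 0.76 for Fanconi and recombination genes, 1.0 for kinetochore genes, 0.90 for spindle genes and 0.04 for T and NK cell markers, which lay at 0.02 over the members above the floor. When lists were averaged by their mean, origin licensing lay at 1.09, E2F and DREAM factors at 0.63, cyclins and kinases at 0.94, spindle genes at 1.20, miR-27 targets at 0.17, E1 enzymes at -0.26 and junction genes at -0.26. The other 159 list medians stayed within 0.1. The share of higher genes' promoters with an E2F motif was 15.7% with 2 motif versions and 10.1% at 1.5-fold. Dim genes limit the lower side most, since only 59 of its 115 genes lay above the floor.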

Other observations

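Probe sets that do not name a single gene in the platform annotation were balanced when all were counted, unlike the others, and less so above the floor. Of 3739 such probe sets 51 (1.36%) were at least 2-fold higher with miR-151a-5p and 51 (1.36%) at least 2-fold lower, and above the floor the counts were 30 and 19 of 2125. Their extremes were 2.56 and -1.97.

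Zinc finger genes with ZNF or ZFP symbols, a group looked at after the values were seen, were slightly lower with miR-151a-5p. Of 513 such genes 340 (66.3%) were lower, against 52.1% of all genes, and 168 were higher, at a median of -0.14. At least 2-fold higher were 4, and 4 (0.78%) were at least 2-fold lower, against 1.62% and 0.65% of all genes. The 242 of them on chromosome 19 had a median of -0.15.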
